A study of Mus musculus with 21 samples.

Results

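The regions described here are 2122 clusters of crosslinked RNA positions that were listed for the splicing factor SRSF3 in chromatin, nucleoplasm and cytoplasm and were missing from at least 1 of the 3 SRSF7 lists. Positions of all 6 deposited lists were joined on 1 strand of a chromosome at gaps of up to 30 nt, which gave 211409 clusters outside the mitochondrial genome, and the 2122 were kept by presence alone. In the same join, 1294 clusters were present in all 6 lists, and 1808 were present in all 3 SRSF7 lists but not in all 3 SRSF3 lists. The lists come from fractionation iCLIP of P19, an embryonal carcinoma cell line of mouse origin, carrying either SRSF3-GFP or SRSF7-GFP. Ultraviolet light of 254 nm and 100 mJ/cm2 linked protein to RNA, the cells were divided into chromatin, nucleoplasm and cytoplasm, and each tagged protein was recovered with the RNA linked to it. The labels name no other treatment, and the groups include none without a tagged protein. The 21 samples form 6 groups, with 4 replicates in each SRSF3 fraction and 3 in each SRSF7 fraction. Replicates were pooled into 1 list per group before deposit, so there was no spread between replicates to set a difference against, and no p-value is given anywhere.

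SR proteins bind RNA through a recognition motif and carry a domain rich in arginine and serine. They join nascent RNA at the gene, act in splicing, and several of them, SRSF3 and SRSF7 included, shuttle between nucleus and cytoplasm and can help to hand spliced mRNA to the export receptor NXF1. SRSF3 and SRSF7 are close relatives, and SRSF7 has a zinc knuckle that SRSF3 lacks. In iCLIP the reverse transcript (cDNA) usually ends beside the nucleotide that was linked to protein, so each listed position carries a count of cDNAs and clusters of positions mark a binding region. The series asks whether an SR protein stays on the same RNA region from chromatin to cytoplasm, and a region listed in all 3 fractions is the unit of that question.

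The 6 lists held from 248498 to 1768665 cDNAs, lowest in SRSF7 chromatin and highest in SRSF3 chromatin. Outside the mitochondrial genome SRSF3 had 1765193 cDNAs on chromatin, 284616 in the nucleoplasm and 214144 in the cytoplasm. The SRSF7 totals were 247699, 271054 and 334661 in the same order. Every share below is a share of these totals, and intervals are exact 95% intervals that cover counting error only. The lists keep only positions that passed a false discovery rate threshold, so a cluster that is not listed is not shown to be unbound. Coordinates are of build mm9 and 1-based. Regions are given by position because no annotation or genome of that build was used here, so no gene, exon or intron is assigned and no sequence is printed.

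Most of these clusters were not free of SRSF7. Of the 2122, 1549 held at least 1 SRSF7 position and 573 (27.0%) held none. Of the 1549, 689 (32.5% of all) were listed in a single SRSF7 fraction and 860 (40.5%) in 2 of the 3. The clusters are called SRSF3-persistent here as a short name for listed in all 3 SRSF3 fractions and not in all 3 SRSF7 fractions. The name leaves out the 1294 clusters of all 6 lists and makes no claim that SRSF7 was absent. The list that lacked them most often was SRSF7 chromatin, which missed 1762, followed by nucleoplasm with 1118 and cytoplasm with 1077. SRSF7 chromatin was also the shortest by clusters, with 18457 against 30994 in nucleoplasm and 32118 in cytoplasm. The most frequent pattern was listing in SRSF7 nucleoplasm and cytoplasm without chromatin, in 577 clusters, and the rarest was SRSF7 chromatin alone, in 77. With SRSF7 chromatin left out of the join, an alternative chosen after seeing the data, 1547 clusters met the rule. With SRSF3 chromatin left out instead, 3599 did.

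**Figure D1:**
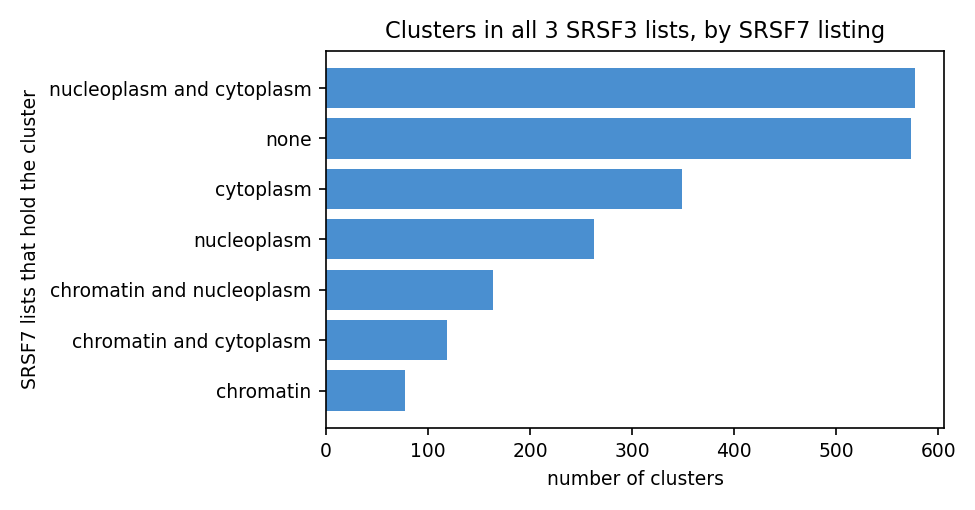
Number of the 2122 SRSF3-persistent clusters (x axis) for each combination of SRSF7 lists that held them (y axis), 1 bar per combination. The bars for nucleoplasm and cytoplasm (577) and for none (573) are the longest, and chromatin alone (77) is the shortest.

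Absence from SRSF7 went with low height in SRSF3. When the clusters were ranked by their mean share over the 3 SRSF3 lists and divided into 4 bins of nearly equal size, 43.3% of the lowest bin held no SRSF7 position, then 32.8%, 22.3% and 9.60% of the highest. The share missing from SRSF7 chromatin changed less, from 88.9% in the lowest bin to 73.6% in the highest. The same bins missed SRSF7 cytoplasm in 65.5% and 36.2%. Low clusters are thus the ones that most often lacked SRSF7, and the part of list depth in this was not tested. Clusters without any SRSF7 position were also lower, with medians of 6, 6 and 4 SRSF3 cDNAs in chromatin, nucleoplasm and cytoplasm, against 9, 9 and 6 over all 2122. Clusters in all 6 lists had medians of 47, 27 and 17.5.

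Where SRSF7 was listed, its counts were small in most clusters. The median was 5 cDNAs in the 360 clusters listed in SRSF7 chromatin, 5 in the 1004 listed in nucleoplasm and 6 in the 1045 listed in cytoplasm. A few carried large SRSF7 counts, with at least 100 cDNAs in 20 clusters in chromatin, 6 in nucleoplasm and 11 in cytoplasm. Over the 1549 clusters with an SRSF7 position, the mean SRSF3 share exceeded the mean SRSF7 share by a median of 1.49 on the log2 scale, with a list that lacked the cluster taken as 0. In 175 of the 2122 (8.25%) the mean SRSF7 share was the higher, although at least 1 SRSF7 list lacked the cluster. These 175 included 157 of the 860 clusters listed in 2 SRSF7 fractions. In clusters of all 6 lists the proteins were nearly level, with a median difference of 0.05 and a higher SRSF7 share in 623 of 1294. The rule uses presence in these lists, so the values describe what it selects.

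The clusters held a larger part of the SRSF3 lists outside chromatin than on it, which follows in part from the rule, since it takes only clusters present in the much shorter nucleoplasm and cytoplasm lists (19599 and 11339 clusters). RNA levels were not used here, so binding and RNA amount in a fraction cannot be told apart. Of SRSF3 cDNAs they held 3.42% on chromatin, with a 95% interval of 3.39 to 3.44. They held 11.8% in the nucleoplasm (11.7 to 11.9) and 10.4% in the cytoplasm (10.3 to 10.6). With positions of at least 3 cDNAs the chromatin value was 6.31% and the cytoplasm value 8.96%, and without the 10 highest loci nucleoplasm gave 16.6% and cytoplasm 16.7%. They were 18.7% of all clusters listed in SRSF3 cytoplasm, 10.8% of those in nucleoplasm and 1.44% of those in chromatin, where 147842 were listed. Of SRSF7 cDNAs they held 3.35% in chromatin, 3.90% in nucleoplasm and 3.87% in cytoplasm. Clusters of all 6 lists held far more, with 27.0%, 59.1% and 73.3% of SRSF3 cDNAs. Positions inside the SRSF3-persistent clusters carried a mean of 2.77 SRSF3 cDNAs in chromatin, above the 2.03 of that list as a whole. In cytoplasm they carried 1.84, below the 3.84 of the whole list. In nucleoplasm they carried 1.89, below the 2.65 of the whole list. By cDNAs per position, the clusters thus stood above the list's average in chromatin and below it in nucleoplasm and cytoplasm. The list averages include the clusters of all 6 lists, which held 73.3% of SRSF3 cDNAs in cytoplasm and 27.0% in chromatin.

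Individual clusters differed between SRSF3 fractions in the same direction as the sums. For chromatin against cytoplasm, 976 of the 2122 had at least 20 cDNAs in both lists together and were compared. The share was higher in cytoplasm with the interval of the ratio wholly beyond 2-fold in 446 of them (45.7%), where the background over all 2444 clusters compared was 42.2%. It was higher in chromatin in 32 (3.28%), against a background of 6.14%. The median log2 ratio of chromatin to cytoplasm was -1.93, against -1.46 over all compared clusters and -1.52 in clusters of all 6 lists. The share higher in cytoplasm lay near the background, so it is not particular to these clusters. All clusters compared had to be listed in both fractions, and chromatin spreads its cDNAs over many more clusters. With only positions of at least 3 cDNAs, 208 of 496 clusters were higher in cytoplasm (41.9%, against 40.4% of all compared) and 69 in chromatin (13.9% against 16.0%). With every list thinned at random to the smallest cDNA total, 197 of 335 were higher in cytoplasm (58.8% against 50.9%) and 28 in chromatin (8.36% against 11.1%).

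Chromatin and nucleoplasm stood further apart. Of 1113 clusters compared, 615 (55.3%) were beyond 2-fold higher in nucleoplasm, where the background was 30.3%. Beyond 2-fold higher in chromatin were 13 (1.17%), against 2.67%. The median log2 ratio was -2.38, against -1.0 over all 4644 clusters compared and -1.63 in clusters of all 6 lists. The background includes many clusters not listed in cytoplasm, and the rule takes only clusters listed there. In clusters of all 6 lists, which are listed in cytoplasm too, 47.1% were beyond 2-fold higher in nucleoplasm. Nucleoplasm and cytoplasm were close, with a median log2 ratio of 0.29, against 0.17 over all compared clusters and 0.18 in clusters of all 6 lists. There 59 of 819 clusters (7.20%) were beyond 2-fold higher in nucleoplasm and 37 (4.52%) in cytoplasm, below the backgrounds of 10.3% and 9.26%. The step in share thus lay between chromatin and the other 2 fractions, as it also did in clusters of all 6 lists. Both sets had to be listed in nucleoplasm and cytoplasm, where 1 cDNA is a larger share than in chromatin. The step thus follows in part from the listing, and clusters of all 6 lists are no independent check of it. After thinning, 249 of 406 clusters (61.3%) were higher in nucleoplasm than in chromatin, against 39.2% of all compared.

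The SRSF3 ratio differed with which SRSF7 list lacked the cluster. This measure uses SRSF3 counts alone, and the rule does not say which SRSF7 list has to be the missing one. Among clusters that missed SRSF7 chromatin only, the median log2 ratio of SRSF3 chromatin to cytoplasm was -2.60 (quartiles -3.91 and -1.04, 345 clusters). Among those that missed SRSF7 nucleoplasm only it was -1.38 (-3.11 and 0.29, 78 clusters), and among those that missed SRSF7 cytoplasm only it was -0.26 (-1.96 and 1.35, 103 clusters). A ratio above 0, a larger SRSF3 share in chromatin, was found in 11.3% of the first set and 46.6% of the last. The quartile ranges of the first and last sets overlap. Over all clusters of each set, the median SRSF3 counts were 12, 12 and 9 cDNAs in the first and 19, 15 and 6 in the last, and the part of the RNA's own amount per fraction was not tested. By its median, SRSF3 thus leaned least toward cytoplasm in the clusters that SRSF7 cytoplasm lacked. For nucleoplasm against cytoplasm, the median was 0.07 where SRSF7 chromatin was missing and 1.36 where SRSF7 cytoplasm was missing, with 83.0% of the latter above 0. Where SRSF7 nucleoplasm was missing it was 0.22, with 60.9% of 64 clusters above 0. The median log2 ratio of SRSF3 chromatin to nucleoplasm was -1.53 there. It was -2.75 where SRSF7 chromatin was missing and -1.71 where SRSF7 cytoplasm was missing. By these medians SRSF3 was highest in nucleoplasm where SRSF7 nucleoplasm was missing, but its lead over chromatin was the smallest of these sets. The shares of chromatin to cytoplasm ratios above 0 kept their order under the 8 alternatives run, at 8.09% to 18.8% against 40.8% to 76.5%. Clusters are not replicates of a condition, so no test was made.

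**Figure D2:**
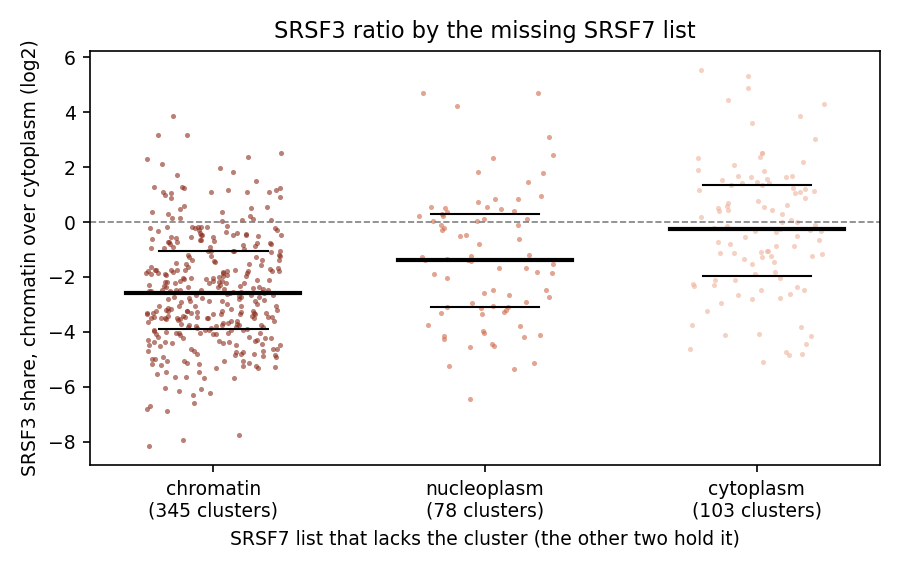
Log2 ratio of SRSF3 share in chromatin over cytoplasm (y axis) for SRSF3-persistent clusters missing from a single SRSF7 list, grouped by that list (x axis). Each point is 1 cluster, the thick line is the median and the thin lines are the quartiles. The median goes from -2.60 where chromatin is missing to -0.26 where cytoplasm is missing.

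The clusters with the highest mean SRSF3 share belonged to several kinds. The first lay at chr16:11144187-11144214 (plus strand). It held 1272, 165 and 234 SRSF3 cDNAs in chromatin, nucleoplasm and cytoplasm, or 0.0721%, 0.058% and 0.109% of the lists. Its SRSF7 counts were 166 in chromatin, none listed in nucleoplasm and 589 in cytoplasm, so a cluster of 28 nt with a mean SRSF7 share of 0.081%, slightly above its mean SRSF3 share of 0.0798%, entered the set through 1 missing list. The fifth, 59 nt at chr2:166890783-166890841 (plus strand), was alike in this. It held 1249, 214 and 53 SRSF3 cDNAs and 527, 679 and no listed SRSF7 cDNAs. Its mean SRSF7 share of 0.154% was well above its mean SRSF3 share of 0.0569%.

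Other leading clusters carried little SRSF7. The seventh, 137 nt at chr17:29315492-29315628 (minus strand), had 77, 163 and 208 SRSF3 cDNAs in chromatin, nucleoplasm and cytoplasm. Its SRSF7 counts were none listed, 9 and 13. Its mean SRSF3 share was 0.0529% against 0.0024% for SRSF7, and its log2 ratio of chromatin to cytoplasm was -4.48, with an interval of -4.87 to -4.09. The sixth was also the widest of all 2122, spanning 1218 nt at chr2:104628870-104630087 (minus strand). It had 669, 349 and 16 SRSF3 cDNAs and 8, none listed and 9 for SRSF7. The twelfth, 203 nt at chr17:29177405-29177607 (plus strand), had 441, 209 and 38 SRSF3 cDNAs and none listed, 15 and 9 for SRSF7. In these clusters SRSF3 exceeded SRSF7 in every fraction where both were listed.

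The leading clusters also differed in fraction. The second, 992 nt at chr10:56108999-56109990 (plus strand), held 74 SRSF3 cDNAs on chromatin, 184 in nucleoplasm and 326 in cytoplasm, a log2 ratio of chromatin to cytoplasm of -5.18 (-5.57 to -4.81). SRSF7 had none listed, 114 and 557 there. The third, 96 nt at chr14:51427137-51427232 (minus strand), had 182, 224 and 273 SRSF3 cDNAs and none listed, 84 and 81 for SRSF7, at -3.63 (-3.91 to -3.35). The eighth, 112 nt at chr11:98012699-98012810 (minus strand), had 59, 219 and 144 and a ratio of -4.33 (-4.79 to -3.88). All 3 held a lower share in chromatin than in the other fractions and lacked SRSF7 chromatin. The eighth was highest in nucleoplasm, at 0.0769% against 0.0672% in cytoplasm, a log2 ratio of 0.19 (-0.12 to 0.51) that lay within counting error.
Others lay toward chromatin. The fourth, 91 nt at chr4:131866146-131866236 (plus strand), had 1298, 255 and 45 SRSF3 cDNAs and a log2 ratio of 1.81 (1.38 to 2.27). Its SRSF7 counts were 291, none listed and 6. The ninth, 119 nt at chr10:110918533-110918651 (plus strand), had 833, 222 and 7, at 3.85 (2.80 to 5.17), with SRSF7 at 113, 25 and none listed. The eleventh, 78 nt at chr19:5796277-5796354 (minus strand), had 958, 167 and 8, at 3.86 (2.88 to 5.08), with SRSF7 at none listed, 15 and 4. In the fourth, ninth and eleventh the nucleoplasm share stayed close to or above that of chromatin and cytoplasm stood apart as low.

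**Figure D3:**
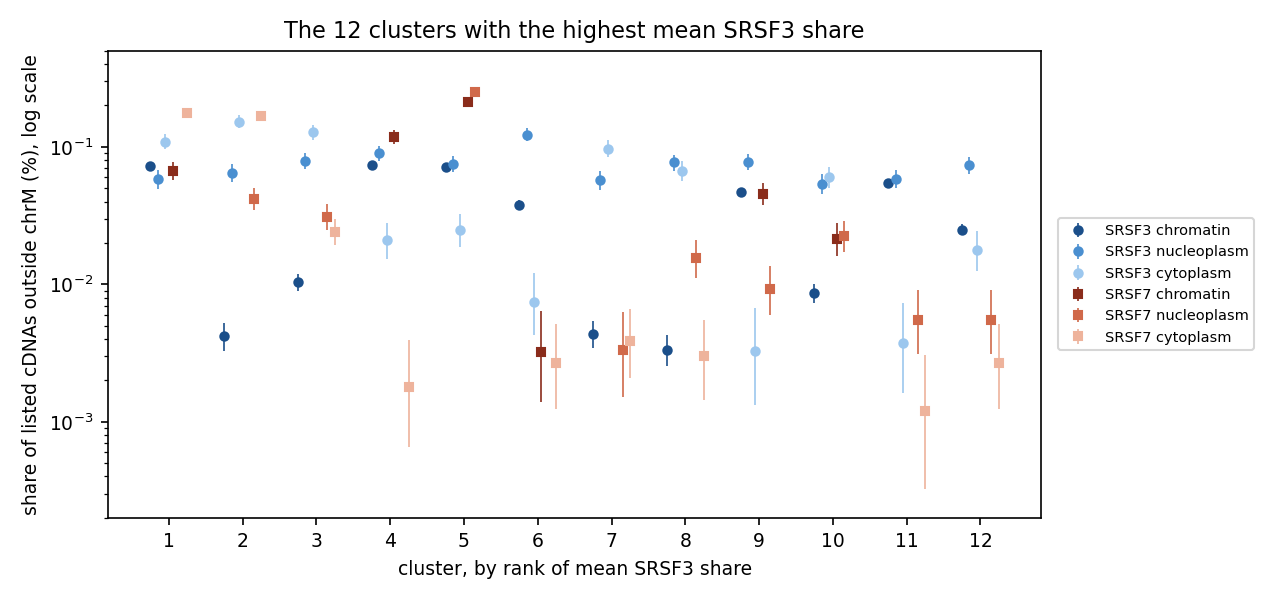
Share of listed cDNAs outside chrM in percent on a log axis (y axis) for the 12 SRSF3-persistent clusters with the highest mean SRSF3 share, by rank (x axis). Circles are SRSF3 lists and squares SRSF7 lists, bars are 95% exact intervals for counting error, and a missing square means that the cluster was not listed. Clusters 1 and 5 have a mean SRSF7 share above their mean SRSF3 share, and clusters 6, 7, 11 and 12 have SRSF7 shares well below SRSF3 nucleoplasm.

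The highest of the 573 clusters without any SRSF7 position lay at chr17:29180909-29181109 (minus strand) and spanned 201 nt. It held 60, 192 and 83 SRSF3 cDNAs in chromatin, nucleoplasm and cytoplasm, which are 0.0034%, 0.0675% and 0.0388% of the lists. The nearest SRSF7 position on the strand was 8320 nt from its summit, the position with the most SRSF3 cDNAs. That summit was the same nucleotide in all 3 fractions, with 9, 33 and 29 cDNAs, and a second point 152 nt downstream held 7, 14 and 6. Both points were thus present in each SRSF3 list.

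The next clusters without SRSF7 were lower. The region chr7:3220441-3220479 (plus strand) held 171, 85 and 11 SRSF3 cDNAs, with an SRSF7 position 73 nt away. The region chr5:5783443-5783509 (minus strand) held 39, 75 and 25, and chr7:87161345-87161459 (plus strand) held 4, 66 and 34. Relative to list size, each of these 3 was highest in nucleoplasm. For the last of them the log2 ratio of nucleoplasm to cytoplasm was 0.55 (-0.07 to 1.19), so that order was not settled.
The region chr15:77165639-77165714 (plus strand) held 17, 56 and 25, and its nearest SRSF7 position was 210967 nt away. The region chr17:24862937-24863028 (minus strand) held 15, 46 and 32. The other two of the leading 8 were at chr6:122275836-122275974 (minus strand), with 212, 18 and 24 cDNAs, and at chr12:85880859-85881006 (plus strand), with 39, 69 and 5. Relative to list size, nucleoplasm was the highest fraction in 7 of these 8 clusters. Its lead over cytoplasm was within counting error at chr7:87161345-87161459 and at chr17:24862937-24863028, where the log2 ratio was 0.11 (-0.57 to 0.81). The exception was the cluster on chromosome 6, at 0.012%, 0.00632% and 0.0112%. Over all clusters compared, the nucleoplasm share exceeded that of chromatin in 3354 of 4644, and the cytoplasm share exceeded that of nucleoplasm in 933 of 2062. How often nucleoplasm was the highest fraction was not counted over all clusters. The 7 of 8 are thus not read as a trait of clusters without SRSF7.

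**Figure D4:**
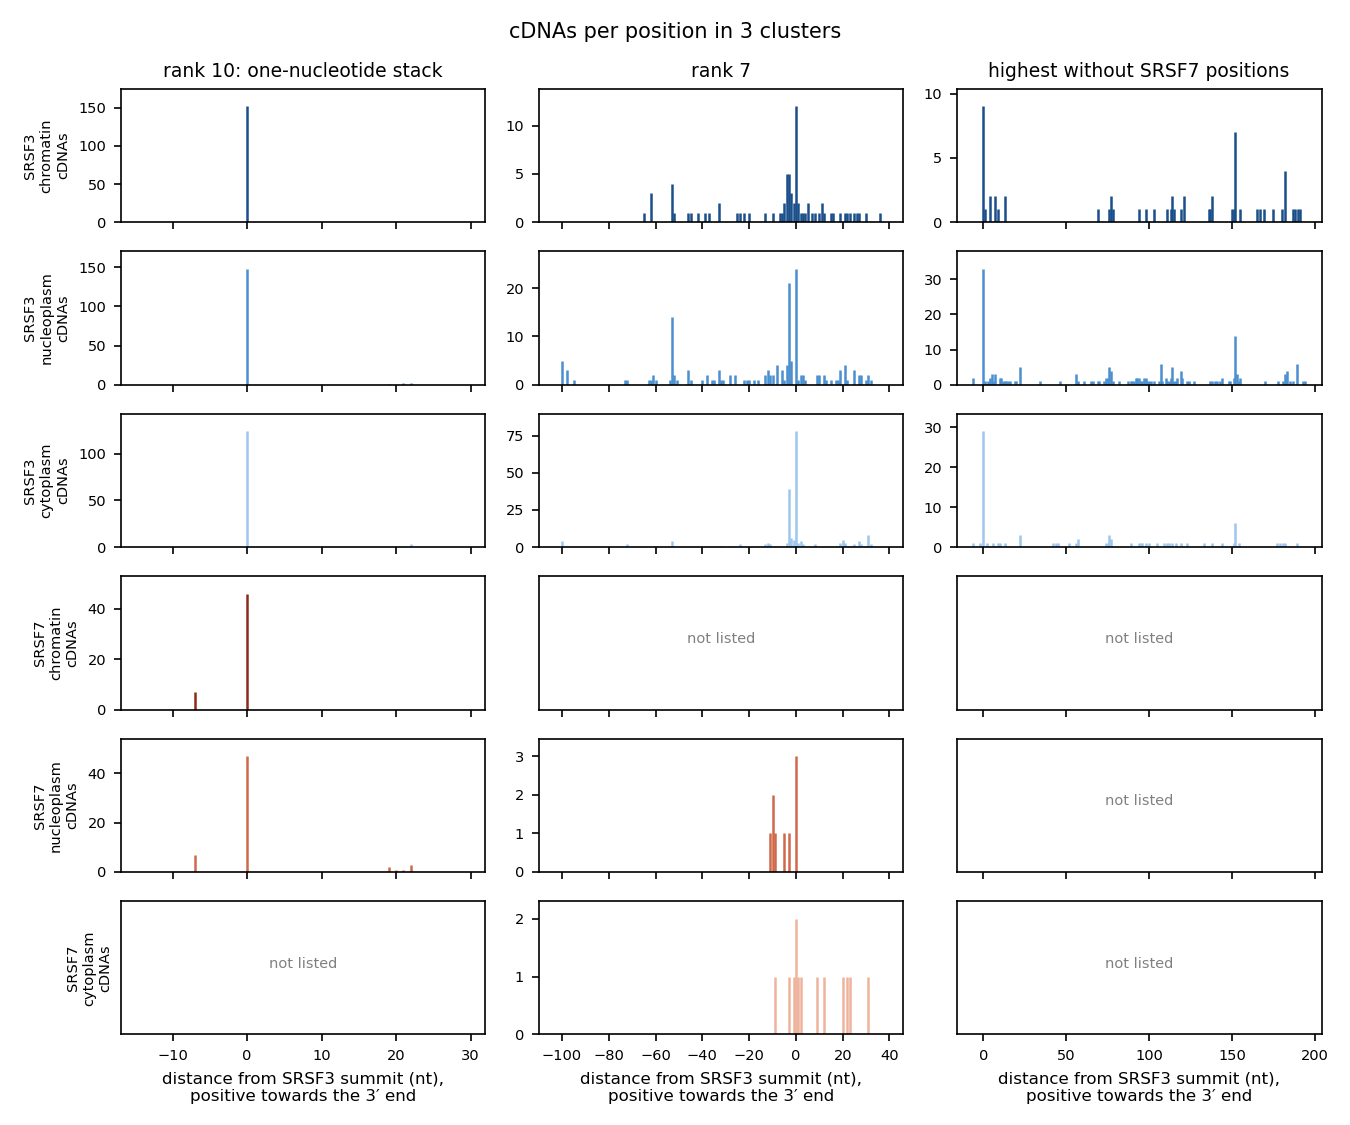
cDNAs per position (y axes, each scaled to its own list) against distance from the SRSF3 summit in nt (x axes) in 3 SRSF3-persistent clusters, 1 column per cluster and 1 row per list. In the tenth cluster by mean SRSF3 share nearly all SRSF3 cDNAs fall on 1 nucleotide, with 152 in chromatin, and the highest cluster without SRSF7 positions keeps its summit in all 3 SRSF3 lists.

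The extremes of the SRSF3 ratio were clusters close to a count of 1. The highest ratios of chromatin to cytoplasm were at chr1:59761641-59761686 (plus strand), where 386 cDNAs against 1 gave a log2 ratio of 5.55 (3.06 to 10.9), chr3:85942746-85942795 (minus strand), with 331 and 1, and chr11:116535465-116535500 (plus strand), with 244 and 1. All 3 spanned at most 50 nt. Each was listed in SRSF7 chromatin and nucleoplasm and not in SRSF7 cytoplasm, with SRSF7 counts of 97 and 107, 51 and 92, and 94 and 130. They also had the 3 highest ratios of nucleoplasm to cytoplasm.
The lowest ratios of chromatin to cytoplasm were at chr11:69730703-69730756 (minus strand), with 1 and 35 cDNAs and -8.17 (-13.5 to -5.60), chr4:137867957-137868125 (plus strand), with 1 and 30, and chr8:124405070-124405124 (minus strand), with 1 and 26. These 3 were listed in SRSF7 nucleoplasm and cytoplasm and not in SRSF7 chromatin, with SRSF7 counts of 20 and 43, 12 and 32, and 26 and 34. At both ends SRSF7 was missing from the fraction in which SRSF3 was at 1 cDNA.
The lowest ratios of nucleoplasm to cytoplasm were at chr6:89713876-89713897 (plus strand), with 2 and 94 cDNAs and -5.97 (-9.03 to -4.07), chr11:48616911-48616978 (plus strand), with 1 and 41, and chr8:126123848-126123879 (minus strand), with 1 and 35. SRSF7 nucleoplasm lacked the first of these and listed 7 and 11 cDNAs for the others.

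The summit was often the same nucleotide in different fractions. Chromatin and cytoplasm summits of SRSF3 were equal in 591 of the 2122 clusters (27.9%) and within 5 nt in 1099 (51.8%). Equal summits numbered 621 (29.3%) for chromatin and nucleoplasm and 646 (30.4%) for nucleoplasm and cytoplasm, and 386 clusters (18.2%) had a single summit in all 3. The rule requires a position in each list within the cluster and not a shared summit. In clusters of all 6 lists chromatin and cytoplasm summits were equal in 38.5% and within 5 nt in 57.7%, and 26.8% had a single summit in all 3 SRSF3 lists. The latter clusters were wider and taller, with a median width of 61 nt against 44 nt. With at least 5 cDNAs in every SRSF3 list, a single summit in all 3 was found in 25.4% of 916 SRSF3-persistent clusters and 28.7% of 980 clusters of all 6 lists, so the gap was smaller among taller clusters.

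Equal summits were most frequent in narrow clusters, where width itself limits the distance. Both summits have to lie within the cluster, so the differences between width classes are in part fixed in advance. The median width was 9 nt in the class of 1 to 20 nt. In clusters of 1 to 20 nt, 44.5% of chromatin and cytoplasm summits were equal and 86.5% within 5 nt. In clusters of 21 to 60 nt the values were 24.3% and 48.0%, in those of 61 to 120 nt 24.1% and 37.6%, and in those over 120 nt 17.8% and 30.3%. In clusters of all 6 lists the equal shares were 64.2%, 33.3%, 39.7% and 25.1% in the same 4 width classes, so they were higher in each. Over all widths, 29.1% were equal in clusters without SRSF7, 25.5% in those listed in 1 SRSF7 fraction and 28.8% in those listed in 2. Their median widths differed, at 37, 46 and 49 nt, so these shares are not at like width. Equal summits made up 19.6% with thinned lists and 56.5% when positions under 3 cDNAs were dropped.

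**Figure D5:**
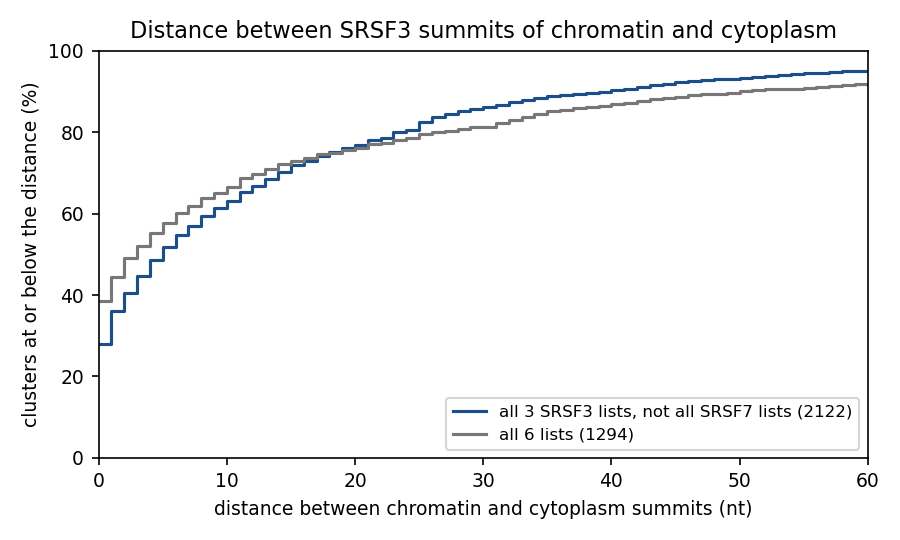
Percent of clusters (y axis) whose SRSF3 summits in chromatin and cytoplasm lie at or below a distance in nt (x axis), for the 2122 SRSF3-persistent clusters and the 1294 clusters of all 6 lists. At distance 0 the curves stand at 27.9% and 38.5%, and they cross at wider distances.

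A few clusters were stacks on 1 nucleotide. Of 358 SRSF3-persistent clusters with at least 10 cDNAs in every SRSF3 list, 22 had at least 50% of each list's cDNAs on the same nucleotide, and 3 had at least 90%. In clusters of all 6 lists the numbers were 34 and 7 of 714, so the shares of 6.15% and 4.76% with at least 50% on a nucleotide were near each other. One of the 3 was the tenth by mean SRSF3 share, at chr9:55756630-55756659 (minus strand), with 152 of 152, 148 of 153 and 124 of 129 SRSF3 cDNAs on a single position. SRSF7 had 46 of 53 and 47 of 61 cDNAs on that same nucleotide in chromatin and nucleoplasm and was not listed in cytoplasm. Of the 22 stacks, 19 held SRSF7 positions, as did 1549 of all 2122 clusters. Only 9.60% of the highest bin by mean SRSF3 share held none, so this is not read as a trait of stacks. Over all SRSF3-persistent clusters, stacks included, the median share on a list's own summit was 21.1% in chromatin, 23.1% in nucleoplasm and 28.1% in cytoplasm among clusters with at least 10 cDNAs in that list.

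Where SRSF7 was listed inside a cluster, it often peaked at the SRSF3 summit. The SRSF7 summit over its 3 lists was the SRSF3 summit in 400 of 1549 clusters (25.8%) and within 5 nt in 780 (50.4%). In clusters of all 6 lists it was equal in 43.4% and within 5 nt in 62.9%. Among clusters of 61 to 120 nt the equal share was 19.8% against 41.8%, and among those over 120 nt it was 15.3% against 31.5%. The equal share was lower in the SRSF3-persistent clusters in all 4 width classes, and their SRSF7 counts were lower too. For the 689 clusters listed in a single SRSF7 fraction the equal share was 20.5%, and for the 860 listed in 2 it was 30.1%.

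The surroundings of the clusters were uneven in SRSF7. For all 2122, 75.1% had an SRSF7 position within 100 nt of the SRSF3 summit on the strand, 51.7% one of the cytoplasm list and 18.8% one of the chromatin list. Among the 573 without SRSF7 positions, 9.77% had one within 100 nt, 34.0% within 1000 nt and 52.5% within 10000 nt. For 272 of them there was none within 10000 nt, so SRSF7 was not listed on the surrounding RNA either. In the mirror case, the 1808 clusters listed in all 3 SRSF7 fractions and not all SRSF3 fractions, 75.1% had an SRSF3 position within 100 nt and 77 had none within 10000 nt. The SRSF3 lists together hold more positions than the SRSF7 lists, so these distances are not of equal weight. On the opposite strand 1.84% of SRSF3-persistent clusters had a listed position of any file within 100 nt.

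The clusters lay in 1686 loci, a locus being all positions joined at gaps of up to 10000 nt on a strand, which can merge neighbouring genes. Of these, 1446 held a single SRSF3-persistent cluster, 240 held at least 2 and 19 at least 5. The 240 held 676 of the 2122 clusters, and clusters of a locus may lie on the same transcript, so they are not taken as independent. Neighbouring clusters in a locus were a median of 749.5 nt apart, and 115 of 436 pairs lay within 200 nt. Clusters of all 6 lists occurred in 253 of the loci, with 465 of the SRSF3-persistent clusters. In 1314 loci, with 1495 clusters, no cluster was listed in all 3 SRSF7 fractions. Most SRSF3-persistent clusters were therefore on loci where SRSF7 had no cluster persistent over its own 3 fractions. By the rule an SRSF3-persistent cluster cannot itself be such a cluster, and 1446 of the 1686 loci held no further SRSF3-persistent cluster. The value thus follows in part from the rule, and no share over all loci is given to set it against.

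Within a locus the clusters took up more of the SRSF3 cDNAs in nucleoplasm and cytoplasm than in chromatin. In 339 loci with at least 20 cDNAs in every SRSF3 list, they held a median of 17.3% of the locus's cDNAs in chromatin (quartiles 5.64% and 41.6%), 35.7% in nucleoplasm (13.6% and 72.4%) and 44.7% in cytoplasm (15.4% and 86.3%). The cytoplasm value lay above the chromatin value in 243 of the 339 loci, and the nucleoplasm value above the chromatin value in 236. The cytoplasm value lay above the nucleoplasm value in 182 of the 339. The rule keeps only clusters that the nucleoplasm and cytoplasm lists hold, which favours their values over that of the longer chromatin list.

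Where the clusters sat along a locus depended on the locus. Over 313 loci of at least 5 kb with at least 10 clusters listed in SRSF3 chromatin alone, 41.2% of the 517 SRSF3-persistent clusters lay in the last 20% toward the 3′ end and 25.3% in the first 20%. Of the 16285 clusters listed in SRSF3 chromatin alone in the same loci, 16.0% lay in the last 20% and 23.9% in the first. Other clusters listed in SRSF3 cytoplasm gave 40.8% in the last 20%, close to the value of the SRSF3-persistent clusters. Clusters of all 6 lists gave 21.1%. By locus, the median SRSF3-persistent cluster lay nearer the 3′ end than the median chromatin-alone cluster in 144 of 313 loci (46.0%). After thinning the share was 50.7%, and it was 50.9% when positions under 2 cDNAs were dropped, so single loci lay near an even split. With positions of at least 3 cDNAs the share in the last 20% was 24.5%.

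The 5 loci with most clusters differed in layout. The region chr1:60538253-60589767 (minus strand), 51.5 kb, held 18 SRSF3-persistent clusters, all between 60540100 and 60546723 near its 3′ end. The 18 held 450 of the locus's 1048 SRSF3 cDNAs in chromatin, 122 of 242 in nucleoplasm and 52 of 63 in cytoplasm. No cluster of this locus was listed in all 3 SRSF7 fractions, and 5 of the 18 held no SRSF7 position. The region chr15:7079608-7149109 (plus strand) held 10, all between 7141464 and 7147026, again near the 3′ end. These held 124 of 1099 cDNAs in chromatin, 112 of 274 in nucleoplasm and 69 of 86 in cytoplasm.
The region chr1:133807077-133834235 (plus strand) held 9, all between 133829774 and 133832499. The region chr11:77499637-77532052 (plus strand) also held 9, but these ran from 77508369 to 77529565 and lay among 5 clusters of all 6 lists and 8 that were persistent for SRSF7 but not SRSF3. The region chr15:79358201-79376988 (minus strand) held 8, with 44 of 51 SRSF3 cytoplasm cDNAs. In 4 of these 5 loci the clusters were packed into a short stretch, and at the chr11 locus they were spread over most of the locus.

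The rule has edges that change single clusters. Just inside it, 124 clusters had 1 cDNA in their lowest SRSF3 list and 419 had 2, together 25.6% of all, while 916 had at least 5 and 94 at least 20 in every SRSF3 list. Just outside it, 8583 clusters were listed in 2 of the 3 SRSF3 fractions, of which 5751 in chromatin and nucleoplasm with a median of 11 and 4 cDNAs. On the SRSF7 side, 177 of the 1294 clusters of all 6 lists had 1 or 2 cDNAs in their lowest SRSF7 list and would have entered the set without them. Another 87 SRSF3-persistent clusters had a position of a missing SRSF7 list 31 to 60 nt from their edge.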

How the data were processed

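Fractionation iCLIP lists of 6 groups were used, each pooled by the authors from 4 (SRSF3) or 3 (SRSF7) replicates, per the labels. Each deposited entry is 1 nt wide with a signed whole number, read here as the cDNA count with the sign as strand. Positions passed a false discovery rate under 0.05 against 100 permutations with a 15 nt neighbourhood, per the file headers. In SRSF7 track names a term says that regions were taken as one, while descriptions say separately, so protein and peak calling cannot be told apart. The build, mm9, is named in the submitters' processing notes. Which aligner was used and how duplicates were removed is not given in the sources used here. Positions were joined as described in the results. Clusters were compared with at least 20 cDNAs in both lists together and called beyond 2-fold from the 95% conditional exact binomial interval of the ratio of shares. The procedure was run on simulated counts that held counting error only. That run had no spread between replicates and no listing threshold, so it does not show how the calls behave with these. Summits are the positions with most cDNAs, the lowest coordinate on ties. Clusters were named by rank of mean SRSF3 share (12), the same without SRSF7 positions (8), the 3 highest and lowest ratios of chromatin and nucleoplasm to cytoplasm, and the 5 loci with most clusters. Positions within loci and ratios by missing list were added after seeing the data. The clusters and lists were chosen with earlier results of these data known. A motif search was not run because it needs a genome of that build. The work was done in Python 3.11.15 with scipy 1.17.1, pandas 2.3.3, numpy 2.4.6 and, for plots, matplotlib 3.10.9. Nothing in the labels says that replicates came from separate cultures.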

Additional observations from a re-analysis of the deposited data

Results flagged for a closer look

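Of 36 SRSF3-persistent clusters with at least 20 cDNAs in chromatin and cytoplasm together for each protein, 2 had intervals on opposite sides of 0 for the chromatin to cytoplasm ratio of SRSF3 and SRSF7, and the difference was not tested. The first, at chr1:172975110-172975199 (plus strand), gave -3.32 for SRSF3 (42 and 51 cDNAs) and 1.34 for SRSF7 (45 and 24 cDNAs) on the log2 scale. The second, at chr6:132515026-132515045 (plus strand), gave -1.20 for SRSF3 (54 and 15) and 2.21 for SRSF7 (24 and 7). In 28 of the 36 the signs were the same. Among clusters of all 6 lists 127 of 840 had such opposite intervals and 574 the same sign. Clusters of all 6 lists were taller, which narrows the intervals, so these counts are not at like height and no difference is read from them. The 36 had to be listed in SRSF7 chromatin and cytoplasm, so they lacked SRSF7 nucleoplasm alone.

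The mitochondrial genome, which the rule leaves out, held 7 clusters listed in all 3 SRSF3 fractions and missing from at least 1 SRSF7 list. Their SRSF3 counts were 187 on chromatin, 2519 in the nucleoplasm and 6443 cDNAs in the cytoplasm. SRSF7 had none listed on chromatin, 180 in the nucleoplasm and 4699 in the cytoplasm.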

How the results depend on the processing

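No paired analysis was possible because replicates were pooled before deposit, so a replicate block and leaving out single replicates were not run, nor was the motif search. Over 19 results and 14 settings, 64 of 132 alternative values stayed within tolerance and 68 moved. The tolerance was 1.5 times for a count and the 95% interval of the reported value for a share or median, so it was much narrower for shares of cDNAs. Ratios above 0 where SRSF7 cytoplasm was missing passed from 46.6% to over 50% in 4 settings, and loci with clusters nearer the 3′ end from 46.0% to 50.9% and 50.7% in 2. The values below are, in this order where they moved, clusters meeting the rule, those without SRSF7, the SRSF3 shares, counts beyond 2-fold, and the other measures. Background shares are given only for positions of at least 3 cDNAs and for thinned lists. In the other settings the counts beyond 2-fold show how the number called moved and say nothing about a difference from all clusters.

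With positions of at least 2 cDNAs, 1325 clusters met the rule, with shares of 4.51% in chromatin and 8.72% in cytoplasm. Counts beyond 2-fold were 50 higher in chromatin and 264 in cytoplasm, and 370 in nucleoplasm over chromatin. Ratios above 0 were 18.8% where SRSF7 chromatin was missing and 60.5% where SRSF7 cytoplasm was. Equal summits were 42.6%, SRSF7 within 100 nt 72.4%, the median width 26 nt, loci 1085 and the last 20% of loci 31.3%.

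With at least 3 cDNAs, 803 met the rule, 279 without SRSF7, with shares of 6.31%, 12.1% and 8.96%. Counts were 69 in chromatin and 208 in cytoplasm, and 27 in chromatin and 287 in nucleoplasm. For chromatin against nucleoplasm these were 5.06% and 53.7% of 534 compared, against 7.64% and 31.7% of all compared. Ratios above 0 were 16.7% and 60%. Equal summits were 56.5%, SRSF7 within 100 nt 68.7%, the width 24 nt, loci 646 and the last 20% of loci 24.5%.

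With a join at 10 nt the shares were 3.36%, 12.3% and 11.0%, equal summits 31.1%, SRSF7 within 100 nt 78.3% and the width 30 nt. With 60 nt the shares were 11.3% in nucleoplasm and 9.91% in cytoplasm, ratios above 0 where SRSF7 chromatin was missing 15.4%, clusters higher in chromatin than nucleoplasm 20, SRSF7 within 100 nt 73.1% and the width 54 nt.

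With all lists thinned to the smallest, 357 clusters held no SRSF7, with shares of 3.45%, 9.77% and 8.14%. Counts were 197 in cytoplasm and 249 in nucleoplasm over chromatin, ratios above 0 were 8.09% and 66.0%, equal summits 19.6%, SRSF7 within 100 nt 78.8% and the width 41 nt. Requiring absence from all SRSF7 lists left 573 clusters, and leaving out SRSF3 chromatin gave 3599.

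With mitochondrial cDNAs in the totals, shares were 10.7% in nucleoplasm and 8.70% in cytoplasm, and without the 10 highest loci they were 3.92%, 16.6% and 16.7%. With at least 50 cDNAs, 128 clusters were higher in cytoplasm than chromatin, 195 in nucleoplasm than chromatin, 34 in nucleoplasm than cytoplasm and 13 in cytoplasm than nucleoplasm, and ratios above 0 were 16.3% and 76.5%. Equal summits were 34.7% with at least 5 cDNAs in every SRSF3 list, SRSF7 cytoplasm lay within 100 nt in 51.7%, and the last 20% of loci held 30.3% with loci joined at 5000 nt.

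In 25.6% of the clusters the lowest SRSF3 list held only 1 or 2 cDNAs. With all lists thinned to the smallest cDNA total, 1473 clusters met the rule, against 2122 as reported. Which clusters entered or left the set on thinning was not examined. Leaving out single lists, the loci join at 5000 nt and the alternatives for the ratios above 0 and the last 20% of loci were chosen after seeing the data.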
